A study of Mus musculus with 8 samples.

Results

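Aminoacyl-tRNA synthetases and the genes of the ATF4 amino acid response were examined in intestinal epithelium of lactating mice with and without the receptor RANK. The genes were taken by name from the table of gene counts, 20 cytosolic synthetases, 2 scaffold genes of the multisynthetase complex and 17 genes of the ATF4 response, and all 39 were found among its 54532 genes. They were chosen by name and role, with earlier results of these data known. Intestinal epithelial cells came from 4 WT and 4 Rank-knockout mice at lactation day 5, with 1 library per mouse. The knockout removes Tnfrsf11a, the gene for RANK, through a floxed allele and Cre driven by the Villin1 promoter, so the deletion is restricted to intestinal epithelium. All lines were kept on a C57BL/6J background, controls were female littermates, and females of both genotypes were mated with wild-type C57BL/6J males. The study gives age only as a general range for its mice, not for these mothers.

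Libraries were made from 3′ ends of polyadenylated RNA, so that a transcript gives about 1 read whatever its length. Levels are given as CPM, counts scaled to the TMM-adjusted size of the library, and differences as log2 fold changes of Rank-knockout over WT with their standard error (SE) and an edgeR p value adjusted over all 9855 genes tested. A gene is called higher or lower where that adjusted p is under 0.05. Total counts were 1530781 to 4335653 per library, so that genes with few counts were measured with less precision in the shallow libraries, of which 3 were WT. Tnfrsf11a itself was at 77.4, 49.7, 41.7 and 73.9 CPM in WT and at 27.2, 42.0, 35.5 and 47.2 CPM in Rank-knockout, with overlap (log2 fold change -0.67, SE 0.22; adjusted p = 0.0321, lower). This call was lost under 7 of 17 alternatives, with values from -0.64 to -0.47. Its 3′ reads need not lie in the deleted part, so they do not check the labels. Epithelial markers were high in every library, with 8 genes summing to 11437 to 12538.5 CPM in WT and, without overlap, to 8923 to 11262 CPM in Rank-knockout, 3 of them called lower and 2 higher, while 8 stromal and muscle markers summed to 6.29 to 19.5 CPM.

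Aminoacyl-tRNA synthetases join each amino acid to its tRNA and thereby supply the ribosome with substrates. In the cytosol, 8 of the enzyme genes listed here encode parts of the multisynthetase complex, which is held together by the scaffolds AIMP1, AIMP2 and EEF1E1, while the other enzymes act outside it. Uncharged tRNA activates the kinase GCN2, and phosphorylation of the initiation factor eIF2 by GCN2 or by related kinases favours translation of ATF4, a transcription factor that induces amino acid transporters, biosynthetic enzymes and many synthetases. The ATF4 protein is controlled mainly by translation, so the level of its mRNA is not a measure of its activity. TRIB3 and DDIT3 (CHOP) are induced under longer or stronger stress through the same pathway.

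With all 8 libraries most of the synthetase genes were higher in Rank-knockout, and none was lower. Without WT replicate 1, WT replicate 4 or Rank-knockout replicate 1 the higher synthetase and scaffold genes numbered 8, 8 and 10. Of all genes 11.8%, 10.002% and 10.8% were higher in those fits. Of the 22 synthetase and scaffold genes, all of which passed the filter on low counts, 13 were higher and 0 were lower, against 15.8% of all genes tested that were higher and 14.6% that were lower. Their median log2 fold change was 0.59, beside 0.02 over all genes tested, and 21 of the 22 values were positive. Libraries of the genotypes did not overlap for 10 of the 22 genes, each of them higher in Rank-knockout, against 14.4% of all genes tested that were higher without overlap. Summed over the 22 genes, the level was 1585, 2021, 1854 and 1448 CPM in WT replicates 1 to 4 and 2917, 2633, 2595 and 2413 CPM in Rank-knockout replicates 1 to 4. Every Rank-knockout library was thus above every WT library in this sum.

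**Figure D1:**
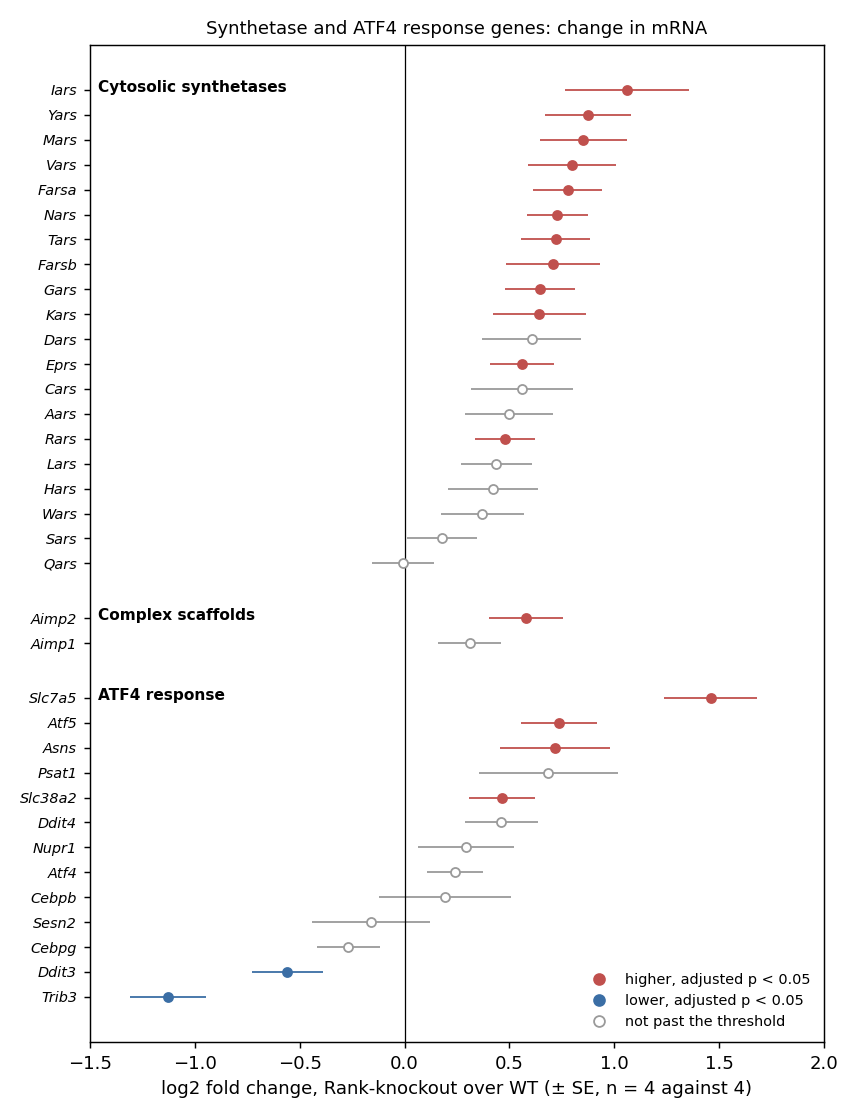
Log2 fold change of Rank-knockout over WT (x axis) for the 35 tested genes, each with its SE (n = 4 libraries per genotype), grouped as cytosolic synthetases, complex scaffolds and ATF4 response, with filled points for an edgeR adjusted p under 0.05. All synthetases except Qars lie to the right of 0, while the ATF4 response runs from -1.13 (Trib3) to 1.46 (Slc7a5).

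Among enzymes outside the complex, Farsa and Farsb encode the subunits of the phenylalanine enzyme. Farsa was at 266, 346, 214 and 209 CPM in WT replicates 1 to 4 and at 446, 479, 458 and 399 CPM in Rank-knockout replicates 1 to 4, a log2 fold change of 0.78 (SE 0.16; adjusted p = 0.00266). Farsb was at 108, 166, 104 and 69.9 CPM in the WT libraries, against 208, 179, 218 and 137 CPM in Rank-knockout, giving a log2 fold change of 0.71 (SE 0.22; adjusted p = 0.0285). Both subunits were thus called, Farsa without overlap of the libraries and Farsb with overlap of WT replicate 2 and Rank-knockout replicate 4. Nars, for asparagine, had the smallest p of the synthetases and rose from 209, 276, 302 and 224 CPM to 434, 419.9, 409 and 414 CPM, giving a log2 fold change of 0.73 (SE 0.14; adjusted p = 0.0018). Tars, for threonine, was at 123, 93.3, 149.6 and 126 CPM in the WT libraries, against 243, 173, 179 and 211 CPM in Rank-knockout (log2 fold change 0.72, SE 0.16; adjusted p = 0.00438). Neither gene overlapped between genotypes, and the Rank-knockout libraries were closer to each other for Nars than for Tars.

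Yars, for tyrosine, had the largest log2 fold change outside the complex, 0.87 (SE 0.20; adjusted p = 0.00476), from 19.9, 34.2, 24.6 and 19.3 CPM to 51.2, 51.8, 39.1 and 43.2 CPM. Gars, for glycine, went from 58.9, 83.1, 66.9 and 52.6 CPM to 124, 97.6, 103 and 89.1 CPM (0.65, SE 0.17; adjusted p = 0.00905). Both genes were higher in each Rank-knockout library than in any WT library. Vars, for valine, went from 33.6, 36.5, 47.1 and 28.6 CPM to 86.8, 63.4, 45.9 and 55.9 CPM (0.80, SE 0.21; adjusted p = 0.00918), with WT replicate 3 above Rank-knockout replicate 3. The remaining enzymes outside the complex did not pass the threshold. Means in WT and Rank-knockout (± SD, n = 4 each) were 14.4 ± 1.57 and 20.3 ± 3.47 CPM for Aars (alanine), and 26.4 ± 9.44 and 40.1 ± 8.68 CPM for Cars (cysteine). They were 27.1 ± 7.0 and 36.4 ± 6.97 CPM for Hars (histidine), 98.3 ± 18.8 and 112 ± 16.9 CPM for Sars (serine), and 27.6 ± 5.27 and 35.9 ± 6.20 CPM for Wars (tryptophan). Their log2 fold changes were 0.50, 0.56, 0.42, 0.18 and 0.37, with adjusted p from 0.0833 for Aars to 0.444 for Sars. Hars and Hars2 encode closely related proteins, so reads that match both may be uncertain.

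Within the multisynthetase complex, 7 of the 11 genes (8 enzymes and 3 scaffolds) were higher, compared with 7 of the 12 enzyme genes outside it and 15.8% of all genes tested, and no test of a difference between these sets was made. The counts were 2 and 6 without WT replicate 1 and again without WT replicate 4, where 11.8% and 10.002% of all genes were higher. Iars, for isoleucine, had the largest value of all synthetases, 1.06 (SE 0.29; adjusted p = 0.014), with 11.0, 14.7, 30.0 and 7.99 CPM in the WT libraries, against 39.3, 27.8, 29.7 and 34.0 CPM in Rank-knockout. WT replicate 3 lay within the Rank-knockout range. Mars, for methionine, was at 38.4, 53.0, 41.7 and 27.3 CPM in the WT libraries, against 95.1, 69.4, 75.1 and 55.1 CPM in Rank-knockout, without overlap (0.85, SE 0.21; adjusted p = 0.00647). Eprs, which encodes the enzyme for both glutamate and proline, went from 136, 179, 132 and 126 CPM to 247, 208, 213 and 181 CPM (0.56, SE 0.15; adjusted p = 0.0111). Rars, for arginine, went from 102, 126, 129.8 and 101 CPM to 183, 161, 145 and 152 CPM (0.48, SE 0.14; adjusted p = 0.019). Libraries did not overlap for either gene, although the gap was narrow for Eprs, where WT replicate 2 and Rank-knockout replicate 4 were adjacent. Kars, for lysine, went from 23.3, 28.6, 50.5 and 28.0 CPM to 53.3, 49.9, 38.7 and 58.8 CPM (0.64, SE 0.22; adjusted p = 0.0379), with overlap.

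Qars, for glutamine, stood apart from the other complex members. It was at 66.4, 60.1, 59.4 and 51.3 CPM in the WT libraries, against 63.5, 57.0, 54.0 and 60.9 CPM in Rank-knockout, giving a log2 fold change of -0.01 (SE 0.15; adjusted p = 0.975). The genotypes overlapped throughout, and a p above the threshold does not show that the levels were the same. Dars, for aspartate (14.6 ± 4.68 and 21.7 ± 2.72 CPM, SD, n = 4), and Lars, for leucine (55.2 ± 5.97 and 74.3 ± 15.7 CPM), had log2 fold changes of 0.61 and 0.44 and adjusted p of 0.0611 and 0.0617. Of the scaffolds, Aimp2 was higher, from 60.3, 78.0, 66.2 and 44.6 CPM to 89.4, 109, 101 and 78.3 CPM (0.58, SE 0.18; adjusted p = 0.021), while Aimp1, at 122 ± 24.0 and 152 ± 5.92 CPM (SD, n = 4), had 0.31 (SE 0.15; adjusted p = 0.128). For Aimp2, WT replicate 2 was just below Rank-knockout replicate 4, so that the genotypes did not overlap. Eef1e1, not one of the 39 genes, was higher at low counts, from 3.8 ± 1.26 to 7.99 ± 1.75 CPM (SD, n = 4; 0.95, SE 0.33; adjusted p = 0.0397), not past the threshold on leaving out WT replicate 1, 3 or 4 (0.76, 0.93 and 0.92) or Rank-knockout replicate 1, 2 or 3 (0.99, 0.85 and 0.90), with DESeq2 (0.97) or limma-voom (0.90), or with no filter on low counts (0.99).

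The enzymes fall into structural classes, I and II, with unrelated catalytic folds, and Eprs, which joins an enzyme of each class, was counted in neither. Of 9 class I enzyme genes 5 were higher, with a median log2 fold change of 0.56, and of 10 class II enzyme genes 6 were higher, with a median of 0.64. Of 12 synthetases that are widely reported as ATF4 targets 7 were higher (median 0.60), and of the other 8 synthetases 5 were higher (median 0.62). Of all genes tested 15.8% were higher, and these subsets were not tested against each other. Without WT replicate 1 the counts were 3 for class I, 4 for class II, 6 for the 12 reported targets and 2 for the 8 other synthetases. Those of the targets and of the other synthetases were 6 and 2 without WT replicate 4. They were 7 and 2 without Rank-knockout replicate 1, and 8 and 3 without Rank-knockout replicate 2. The shares of all genes that were higher in these fits were 11.8%, 10.002%, 10.8% and 12.8%.

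**Figure D2:**
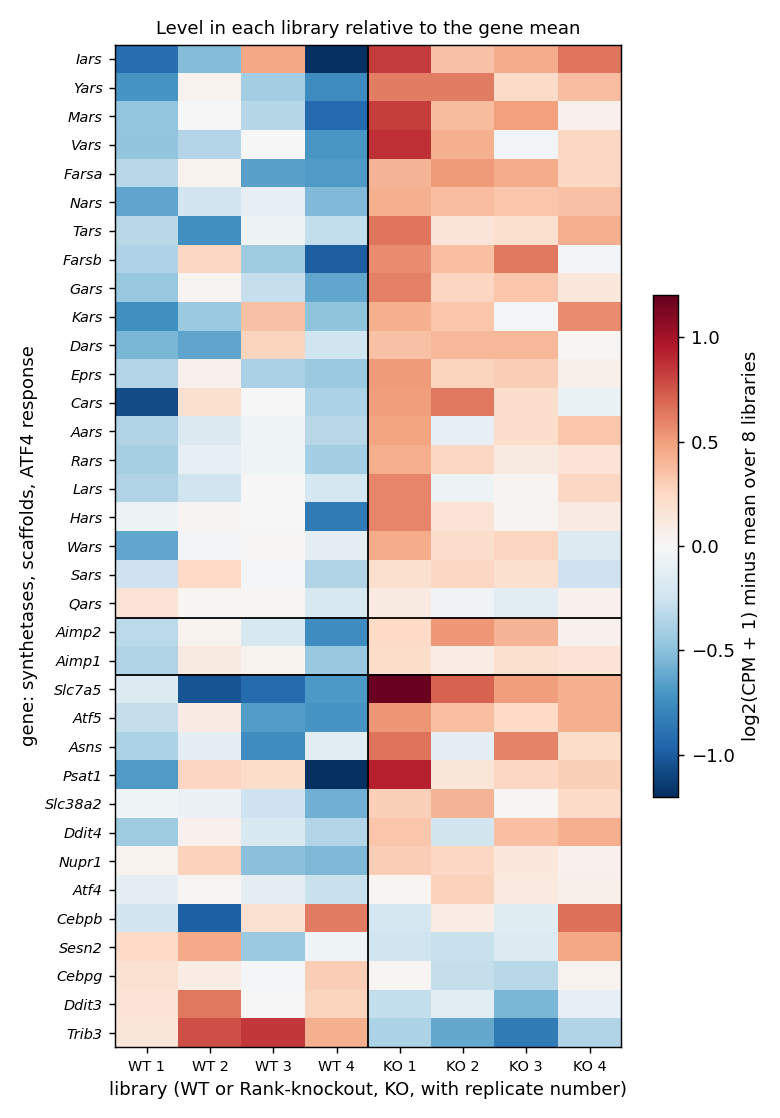
Level of each of the 35 tested genes (rows) in each of the 8 libraries (columns), as log2(CPM + 1) minus the mean of that gene over the libraries, with red above and blue below the mean. WT replicates 1 and 4 are low for most synthetases and Rank-knockout replicate 1 is high for most, while Trib3 and Ddit3 show the opposite colours.

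The count of higher synthetase and scaffold genes varied with the libraries used. It was 8 without WT replicate 1 and 8 without WT replicate 4, in which most synthetases were low. It was 10, 11 and 11 without Rank-knockout replicates 1, 2 and 3, and 13 or 14 without any other library. The share of all genes called higher fell as well, to 11.8% and 10.002% without WT replicates 1 and 4. It was 10.8%, 12.8% and 11.4% without Rank-knockout replicates 1, 2 and 3, so that the loss of calls was not limited to the synthetases. Farsa, Gars, Mars, Nars, Tars, Vars and Yars were called under every alternative tried. Calls were lost for Eprs without WT replicate 4 (0.47), for Iars without WT replicate 1 (0.91), and for Rars without WT replicate 1, WT replicate 4 or Rank-knockout replicate 1 (0.40, 0.39 and 0.41). Farsb lost its call on leaving out WT replicate 1, 3 or 4 (0.65, 0.64 and 0.51) or Rank-knockout replicate 1, 2 or 3 (0.65, 0.72 and 0.62). For Kars it was lost on leaving out WT replicate 1, 2 or 4 (0.50, 0.56 and 0.55), on leaving out Rank-knockout replicate 1, 2 or 4 (0.62, 0.65 and 0.56), and with DESeq2 (0.62), and for Aimp2 without WT replicate 1 or 4 (0.53 and 0.42) or Rank-knockout replicate 2 or 3 (0.51 and 0.55). In the other direction, Cars passed on leaving out WT replicate 2 or Rank-knockout replicate 4 (0.77 and 0.68), Dars on leaving out WT replicate 3 (0.80) or Rank-knockout replicate 4 (0.70), and Lars without Rank-knockout replicate 2 (0.52). In the complex, 2 genes were called without WT replicate 1, 2 without WT replicate 4 and 4 without Rank-knockout replicate 1. Outside it, 6 enzyme genes were called in each of these fits.

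Scaling moved the values of all genes together. With unadjusted library totals the log2 fold changes of all genes tested moved up by a median of 0.20, and without the 50 most abundant genes in the library size by 0.13. With library totals 20 of the 22 synthetase and scaffold genes were higher, all but Qars (0.19) and Sars, against 26.1% of all genes tested. No synthetase was lower under any alternative tried.

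Synthesis of tRNA substrates also takes place in mitochondria, by enzymes encoded in the nucleus. Of 21 genes for mitochondrial synthetases and the amidotransferase and formyltransferase that act on charged tRNA, 19 were tested, 6 were higher (Ears2, Gatb, Mars2, Tars2, Vars2 and Yars2) and 0 were lower, beside 15.8% and 14.6% of all genes tested. Mars2, the methionine enzyme of mitochondria, went from 3.64 ± 1.0 to 9.95 ± 1.94 CPM (SD, n = 4), with a log2 fold change of 1.32 (SE 0.31; adjusted p = 0.00513). Ears2, for glutamate, went from 10.04 ± 4.09 to 21.1 ± 2.26 CPM (0.96, SE 0.26), Vars2 from 35.5 ± 8.56 to 58.8 ± 10.7 CPM (0.71, SE 0.20), and Yars2 from 7.81 ± 3.19 to 14.5 ± 1.43 CPM (0.86, SE 0.27). Enzymes for methionine, valine, tyrosine, threonine and, with Eprs and Ears2, glutamate were thus called in both compartments. Without WT replicate 4 the count was 2, near the 10.002% of all genes that were higher in that fit, with 0.53 for Vars2 and 0.76 for Yars2, and the call of Yars2 was also lost on leaving out WT replicate 1 (0.65) or Rank-knockout replicate 3 (0.80) and after thinning to the shallowest library (0.83).

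Promoters of several of these genes hold the letters of the C/EBP-ATF response element, TGATGNAA, to which ATF4 binds as a dimer with C/EBP proteins. RefSeq windows of 300 bases, from 250 before to 50 after an annotated transcription start (GRCm38.p6), were found for 31 of the 39 genes. The letters were searched on both strands and were present in 10 of these 31 genes, 5 of 15 synthetase and scaffold genes and 5 of 16 ATF4 response genes, and in 4.51% of all 27025 genes with a window. They were found in Aars, Gars, Iars, Tars and Yars among the synthetases and in Asns, Chac1, Nupr1, Slc7a11 and Trib3 in the ATF4 response. No windows were matched for Cars, Hars, Lars, Nars, Rars, Slc7a5, Vars and Wars. The 6 windows below are those with the smallest p for the gene's change among the genes with these letters. Of the 6 genes 5 were higher and 1, Trib3, was lower. They are printed 5′ to 3′ on the strand of the gene, with the element in capitals, where TTNCATCA is the element read on the opposite strand.
Trib3 (chr2:152344011-152344310, minus strand): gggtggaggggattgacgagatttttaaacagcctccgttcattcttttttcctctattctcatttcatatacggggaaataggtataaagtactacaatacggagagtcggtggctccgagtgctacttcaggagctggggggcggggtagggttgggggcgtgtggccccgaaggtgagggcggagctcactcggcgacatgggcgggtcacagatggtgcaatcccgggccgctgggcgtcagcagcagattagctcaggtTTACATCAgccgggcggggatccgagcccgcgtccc
Tars (chr15:11399609-11399908, minus strand): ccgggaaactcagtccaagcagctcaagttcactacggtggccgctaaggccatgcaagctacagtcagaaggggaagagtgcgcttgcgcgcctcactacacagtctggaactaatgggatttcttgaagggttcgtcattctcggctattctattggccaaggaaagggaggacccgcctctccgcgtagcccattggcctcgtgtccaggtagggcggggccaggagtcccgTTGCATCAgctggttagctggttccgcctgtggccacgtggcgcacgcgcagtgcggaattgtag
Yars (chr4:129189653-129189952, plus strand): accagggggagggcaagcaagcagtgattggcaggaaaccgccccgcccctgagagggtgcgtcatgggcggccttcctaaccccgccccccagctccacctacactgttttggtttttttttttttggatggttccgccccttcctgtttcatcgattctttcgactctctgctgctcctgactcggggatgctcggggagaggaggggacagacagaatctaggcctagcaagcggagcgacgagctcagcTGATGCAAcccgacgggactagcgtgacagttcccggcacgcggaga
Gars (chr6:55037751-55038050, plus strand): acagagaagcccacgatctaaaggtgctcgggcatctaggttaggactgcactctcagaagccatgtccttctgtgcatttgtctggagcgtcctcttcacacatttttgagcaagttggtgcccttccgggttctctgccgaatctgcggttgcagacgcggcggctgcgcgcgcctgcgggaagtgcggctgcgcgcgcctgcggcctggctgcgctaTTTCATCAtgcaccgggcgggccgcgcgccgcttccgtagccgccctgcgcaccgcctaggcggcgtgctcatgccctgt
Iars (chr13:49681880-49682179, plus strand): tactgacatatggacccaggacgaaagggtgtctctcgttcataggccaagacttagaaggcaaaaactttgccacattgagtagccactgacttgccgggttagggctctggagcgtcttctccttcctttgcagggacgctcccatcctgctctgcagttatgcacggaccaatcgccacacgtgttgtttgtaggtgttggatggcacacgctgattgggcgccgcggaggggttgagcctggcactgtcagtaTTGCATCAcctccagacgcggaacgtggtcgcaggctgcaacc
Asns (chr6:7693160-7693459, minus strand): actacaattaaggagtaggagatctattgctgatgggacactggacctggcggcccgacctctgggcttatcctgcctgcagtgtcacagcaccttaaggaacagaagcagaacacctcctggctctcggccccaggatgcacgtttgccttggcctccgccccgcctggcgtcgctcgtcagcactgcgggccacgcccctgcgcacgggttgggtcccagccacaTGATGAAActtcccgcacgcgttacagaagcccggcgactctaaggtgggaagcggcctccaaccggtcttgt

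Counted from the annotated start, the element began at position -23 in Asns, -30 in Gars and -15 in Tars, and lay just after the start in Trib3, Yars and Iars. A match of letters is not evidence of binding, and its absence elsewhere says only that these letters are not in that window.

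Among the transcription factors, Atf4 itself was not called. It was at 538, 591, 542 and 487 CPM in the WT libraries, against 594, 711, 637 and 609.7 CPM in Rank-knockout, giving a log2 fold change of 0.24 (SE 0.13; adjusted p = 0.187). All Rank-knockout libraries were above all WT libraries, WT replicate 2 and Rank-knockout replicate 1 being close, but the difference did not pass the threshold. With library totals (0.44) and without the 50 most abundant genes (0.37) it passed. Atf5, a related factor that is itself an ATF4 target, was higher, from 58.2, 76.3, 44.4 and 43.3 CPM to 103, 91.6, 84.5 and 96.7 CPM without overlap (0.74, SE 0.18; adjusted p = 0.00633).

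Ddit3, which encodes the stress-induced factor CHOP, was lower. It was at 84.3, 117, 75.1 and 90.5 CPM in the WT libraries, against 60.9, 68.7, 50.8 and 70.1 CPM in Rank-knockout, giving a log2 fold change of -0.56 (SE 0.17; adjusted p = 0.0194). The libraries did not overlap, but the gap between WT replicate 3 and Rank-knockout replicate 4 was small, and the call was lost on leaving out WT replicate 2 (-0.41) or Rank-knockout replicate 3 (-0.47), with library totals (-0.36) and without the 50 most abundant genes (-0.43). Cebpb and Cebpg encode C/EBP proteins that pair with ATF4. Cebpb was at 30.2 ± 13.5 CPM in the WT libraries, against 33.1 ± 10.3 CPM in Rank-knockout, and Cebpg at 84.5 ± 7.73 and 69.8 ± 9.85 CPM (SD, n = 4), with log2 fold changes of 0.19 and -0.27 and adjusted p of 0.68 and 0.189. The value of Cebpb turned to -0.093 when WT replicate 2 was left out and to -0.048 when Rank-knockout replicate 4 was.

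Trib3, a pseudokinase that is a feedback inhibitor of the pathway and a joint target of ATF4 and CHOP, had the largest fall. It was at 62.3, 97.1, 102 and 75.9 CPM in the WT libraries, against 43.1, 36.4, 31.0 and 43.5 CPM in Rank-knockout, giving a log2 fold change of -1.13 (SE 0.18; adjusted p = 0.000556) without overlap. It was the only one of the 35 tested genes beside Ddit3 to be called lower, and it was called under every alternative tried. Of the 13 tested ATF4 response genes 4 were higher and 2 lower, against 15.8% and 14.6% of all genes tested, so that the share of lower genes was near that of all genes. The count of higher genes was 2 when WT replicate 1, 3 or 4 or when Rank-knockout replicate 1 was left out, near the 10.002% to 11.8% of all genes that were higher in those fits. It was 7 with library totals, against 26.1% of all genes, and 2 with DESeq2. With DESeq2 6.27% of 20768 genes were higher, but these include genes too scarce to get an adjusted p. That share is therefore not comparable with the others. The count of lower genes was 1 when WT replicate 2 or when Rank-knockout replicate 3 was left out, with library totals and without the 50 most abundant genes.

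The other effectors did not pass the threshold. Ddit4, an inhibitor of mTORC1, was at 56.5 ± 8.71 CPM in the WT libraries, against 78.5 ± 15.0 CPM in Rank-knockout (SD, n = 4; 0.46, SE 0.18; adjusted p = 0.0559), and passed on leaving out WT replicate 2 (0.57) or Rank-knockout replicate 2 (0.59). Sesn2, a leucine sensor that also restrains mTORC1, was at 10.4 ± 2.96 and 9.55 ± 2.79 CPM (-0.16, SE 0.28), with 0.05 without WT replicate 2. Nupr1, a stress-induced nuclear protein, was at 14.4 ± 4.34 and 18.3 ± 1.44 CPM (0.29, SE 0.23).

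Of the amino acid enzymes, Asns, asparagine synthetase, was just past the threshold. It was at 8.22, 10.1, 6.15 and 9.98 CPM in the WT libraries, against 17.8, 10.1, 17.1 and 12.9 CPM in Rank-knockout (0.72, SE 0.26; adjusted p = 0.049). Rank-knockout replicate 2 lay at the top of the WT range, and the call was lost under 11 of 17 alternatives, among them on leaving out WT replicate 1, 3 or 4 (0.66, 0.58 and 0.73), on leaving out Rank-knockout replicate 1 or 3 (0.59 and 0.65) and with DESeq2 (0.70). Psat1, of serine synthesis, was at 6.17, 12.7, 12.3 and 3.33 CPM and 20.8, 11.6, 12.6 and 12.9 CPM (0.69, SE 0.33; adjusted p = 0.128), and passed on leaving out WT replicate 2 (1.01). Its values were 0.42 without WT replicate 4 and 0.44 without Rank-knockout replicate 1.

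The other serine enzymes were too scarce to be tested. Phgdh, which starts serine synthesis, had 0, 1, 0 and 1 counts in WT and 15, 0, 3 and 6 counts in Rank-knockout, and Psph, which ends it, had 9, 7, 2 and 5 counts and 19, 6, 6 and 19 counts. Phgdh reads were thus mostly in Rank-knockout replicate 1 and absent in Rank-knockout replicate 2. Chac1, a glutathione-degrading enzyme, had 11 counts in all WT and 16 in all Rank-knockout libraries, and Slc7a11, the cystine transporter, had 1 and 5. Without the filter on low counts Phgdh was past the threshold (edgeR adjusted p = 0.0436), while the adjusted p was 0.945, 0.659 and 0.564 for Chac1, Psph and Slc7a11, for which no difference was detectable at this depth. DESeq2 gave no adjusted p for Phgdh, Chac1 or Slc7a11.

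Slc7a5, the transporter subunit for large neutral amino acids known as LAT1, had the largest change of the 35 tested genes. It was at 44.5, 23.8, 26.0 and 30.6 CPM in the WT libraries, against 115, 82.6, 71.0 and 67.5 CPM in Rank-knockout, giving a log2 fold change of 1.46 (SE 0.22; adjusted p = 0.000401), which is 2.75-fold. WT replicate 1 was the highest of its group and still below every Rank-knockout library. Slc38a2, a sodium-coupled carrier of small neutral amino acids, went from 67.8, 66.9, 58.7 and 46.6 CPM to 85.5, 93.4, 71.5 and 82.2 CPM without overlap (0.47, SE 0.16; adjusted p = 0.0363). That call was lost on leaving out WT replicate 1, 3 or 4 (0.49, 0.43 and 0.33), on leaving out Rank-knockout replicate 1 or 2 (0.45 and 0.41), with DESeq2 (0.45) and after thinning (0.43).

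**Figure D3:**
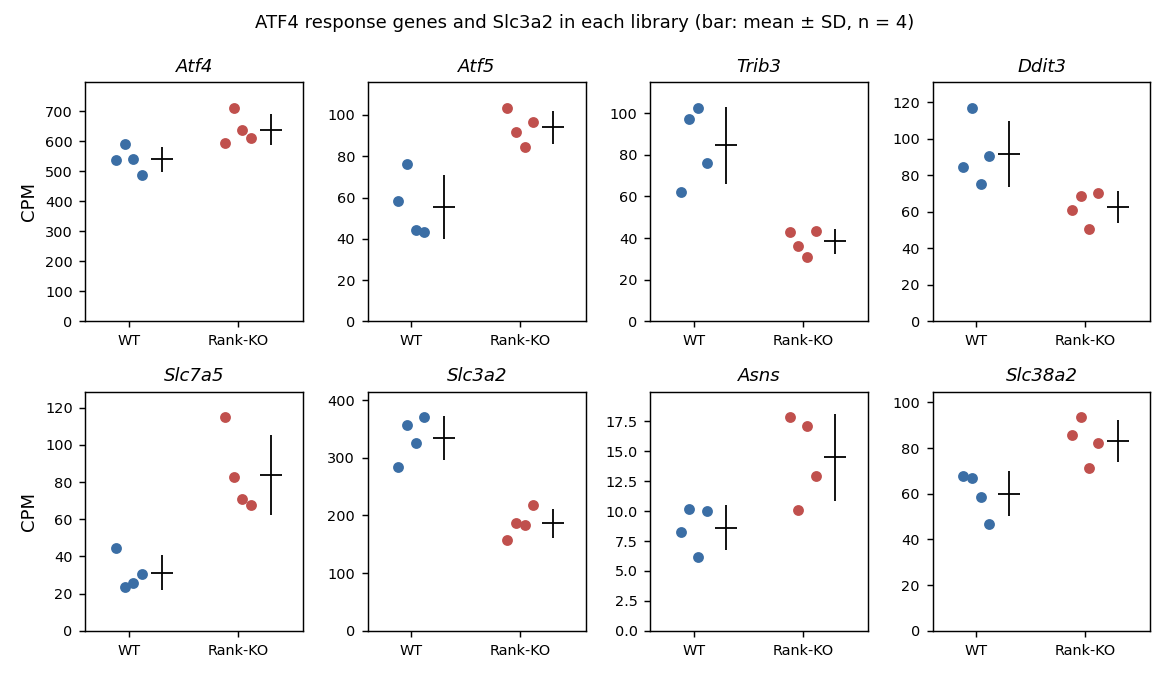
CPM in each library (y axis, from 0) for 7 ATF4 response genes and Slc3a2, with WT libraries in blue, Rank-knockout libraries in red and black bars for the mean ± SD (n = 4). Atf5 and Slc7a5 are higher and Trib3, Ddit3 and Slc3a2 lower in Rank-knockout without overlap, while the Atf4 groups are separated by a small margin.

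The LAT1 protein reaches the membrane as a heterodimer with a heavy chain encoded by Slc3a2, which is itself an ATF4 target and also pairs with other light chains. Slc3a2 moved against Slc7a5. It was at 284, 358, 326 and 370.1 CPM in the WT libraries, against 157, 186, 184 and 219 CPM in Rank-knockout, giving a log2 fold change of -0.84 (SE 0.14; adjusted p = 0.000748). The ratio of Slc7a5 to Slc3a2 counts in the same library, which no scaling changes, was 0.157, 0.0666, 0.0797 and 0.0827 in WT and 0.73, 0.444, 0.385 and 0.309 in Rank-knockout. The ratios of the genotypes had to lie apart, as Slc7a5 was higher and Slc3a2 lower, each without overlap. As this ratio was picked after the values were seen, it is given without a test.

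Of 24 further ATF4 targets 15 were tested, 6 were higher and 2 lower, beside 15.8% and 14.6% of all genes tested, so that the share of lower genes was again near that of all genes. Those higher included genes of mitochondrial one-carbon metabolism, Mthfd2 (32.2 ± 4.62 to 60.8 ± 11.6 CPM, SD, n = 4; 0.90, SE 0.18) and Shmt2 (15.8 ± 4.60 to 33.7 ± 10.04 CPM; 1.10, SE 0.25). They also included the transporters of cationic amino acids, Slc7a1 (51.9 ± 8.48 to 96.8 ± 23.5 CPM; 0.92, SE 0.19), and of glutamine and other neutral amino acids, Slc1a5 (31.4 ± 5.11 to 55.7 ± 16.7 CPM; 0.82, SE 0.22). Their adjusted p were 0.00218, 0.00413, 0.00206 and 0.01. The lower genes were Slc3a2 and Herpud1, a protein of endoplasmic reticulum (ER) degradation. Herpud1 went from 534 ± 169 to 350.2 ± 61.5 CPM (-0.61, SE 0.20; adjusted p = 0.0296), not past the threshold on leaving out WT replicate 2 (-0.37) or on leaving out Rank-knockout replicate 1 or 3 (-0.49 and -0.64), with library totals (-0.41) or without the 50 most abundant genes (-0.48), which left 1 lower target in each case.

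Regulators upstream of ATF4 were mostly not called. Of 14 genes for the alpha subunit of eIF2, eIF2 kinases, their regulators, eIF2B subunits and eIF2 phosphatase subunits, 1 was higher and 1 was lower, both below the shares of all genes tested (15.8% and 14.6%). Eif2b3, a subunit of the exchange factor of eIF2, went from 7.91 ± 1.97 to 16.7 ± 4.67 CPM (SD, n = 4; 1.02, SE 0.27; adjusted p = 0.011). Eif2ak1, the haem-regulated eIF2 kinase, went from 54.1, 57.8, 62.1 and 47.3 CPM to 36.7, 35.3, 33.3 and 43.0 CPM (-0.57, SE 0.16; adjusted p = 0.0135), which was not past the threshold with library totals (-0.37). Without WT replicate 2 the counts were 4 higher and 2 lower, and without Rank-knockout replicate 4 they were 3 and 2, where the higher counts lay above the 15.8% and 17.5% of all genes in those fits. With library totals they were 5 and 0 (26.1% and 8.70% of all genes), and without the 50 most abundant genes 3 and 1 (22.0% and 10.2%). Of 7 amino acid sensor genes 5 were tested, and 1 was lower, beside 14.6% of all genes tested. This was Castor2, which encodes a paralogue of the arginine sensor CASTOR1. It went from 98.6, 98.6, 131 and 146 CPM to 65.6, 45.0, 46.3 and 55.9 CPM (-1.14, SE 0.18; adjusted p = 0.000427). Lower sensors numbered 2 without WT replicate 2 or Rank-knockout replicate 4, beside 15.8% of all genes that were lower in each of these fits.

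Genes of ER protein folding, which respond to ER stress through other factors as well, were higher in 5 of 10 cases and lower in 0, beside 15.8% and 14.6% of all genes tested. Pdia6, a disulphide isomerase, had the largest rise, from 189.7 ± 32.0 to 376 ± 39.7 CPM (SD, n = 4; 0.99, SE 0.15; adjusted p = 0.000418). Manf, Hsp90b1 and Sdf2l1, which assist folding or are secreted on ER stress, had log2 fold changes of 0.75, 0.53 and 0.74. Dnajb9, an ER co-chaperone, was at 36.9 ± 11.9 and 24.3 ± 3.2 CPM (SD, n = 4; -0.56, SE 0.22; adjusted p = 0.0668), and 1 folding gene was lower when WT replicate 2 was left out and after thinning. Without WT replicate 4 the count of higher genes was 3, against 10.002% of all genes, and the call of Sdf2l1 was also lost on leaving out WT replicate 2 (0.56) or Rank-knockout replicate 1 (0.64). Beside Dnajb9, also Hspa5, Pdia4, Calr and Dnajc3 were not called, with log2 fold changes of 0.34, 0.41, 0.20 and -0.04. Their adjusted p were 0.0874, 0.177, 0.384 and 0.846. Ddit3, Trib3 and Herpud1, which are induced by ER stress, were lower, but they were picked from other lists after the values were seen. The calls of Ddit3 and Herpud1 were lost under 4 and 5 of 17 alternatives.

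**Figure D4:**
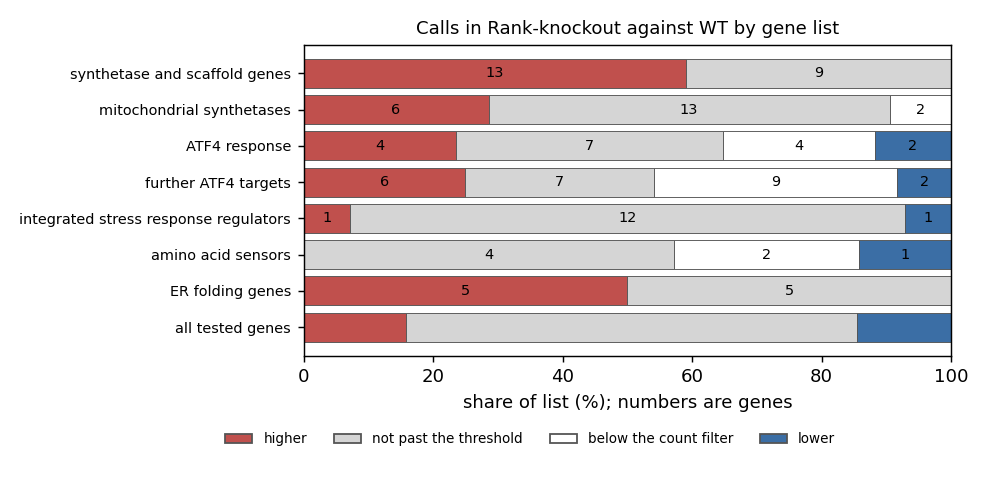
Share of each gene list (x axis, percent, with gene numbers in the bars) that was higher, not past the threshold, below the count filter or lower in Rank-knockout against WT, with all 9855 tested genes in the bottom bar. Synthetases have only grey and red, 13 of 22 higher, while the ATF4 response and its further targets have red and blue.

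Among the 39 genes, 11 share sequence with a protein-coding gene on the other strand, and in 8 such pairs both genes were tested. Reads were counted on the sense strand, so that the partners can be told apart. The 3′ ends of Mars (chromosome 10, 127296221 to 127311786, minus strand) and Ddit3 (chromosome 10, 127290774 to 127296288, plus strand) overlap by 68 bases, and these neighbours moved in opposite directions, Mars higher and Ddit3 lower. The ratio of Mars to Ddit3 counts was 0.455, 0.453, 0.555 and 0.301 in WT and 1.56, 1.01, 1.48 and 0.786 in Rank-knockout.

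Aimp2 (chromosome 5, 143902704 to 143909847, minus strand) and Eif2ak1 overlap by 1548 bases and also moved in opposite directions, with ratios of 1.11, 1.35, 1.07 and 0.944 in WT and 2.43, 3.09, 3.03 and 1.82 in Rank-knockout. Neither ratio could overlap between genotypes, as Mars and Aimp2 were higher and Ddit3 and Eif2ak1 lower, each without overlap. By contrast, Atf5 and Nup62, a nuclear pore gene that overlaps it by 571 bases, were both higher, Nup62 at 43.8 ± 14.1 and 86.1 ± 21.1 CPM (SD, n = 4; 0.93, SE 0.23; adjusted p = 0.00721). Tmem189, which overlaps Cebpb by 908 bases, was lower (-0.85, SE 0.22; adjusted p = 0.00918). No other tested partner was called. Among genes on the same strand, Farsb overlaps 4833412K13Rik, which had 459 counts, so that reads in their shared part may be assigned to neither. The same may hold for Ddit3, which overlaps a second entry of that name by 2925 bases, and for Aars, which overlaps Exosc6 by 1326 bases. Both overlapping entries had 0 counts.

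**Figure D5:**
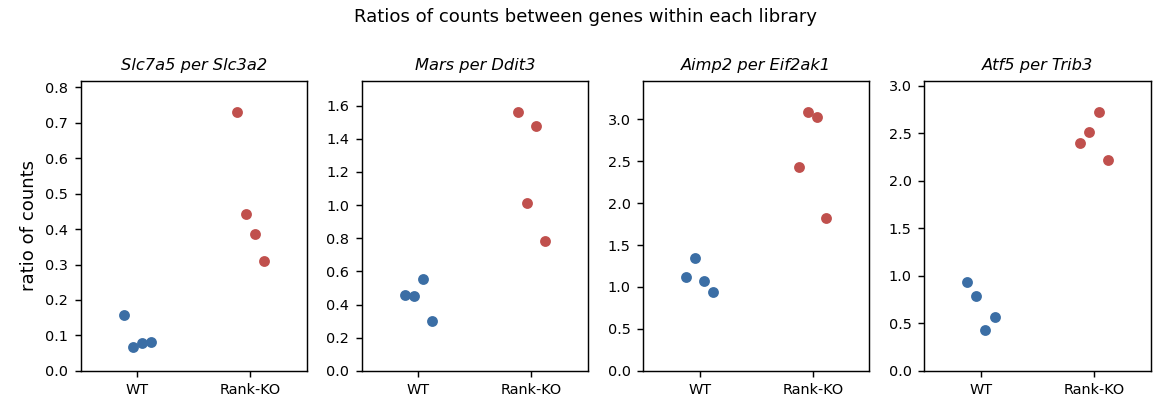
Ratio of counts of the genes named above each panel within each library (y axis, from 0), with WT libraries in blue and Rank-knockout libraries in red. In each of the 4 panels every Rank-knockout library lies above every WT library, for Atf5 per Trib3 from 2.22 to 2.72 against 0.433 to 0.934. This follows from the single genes, as the first of each pair was higher and the second lower without overlap.

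Levels of cell type and cell cycle markers also differed between genotypes. Of all genes tested, 15.8% were higher and 14.6% lower. Replication and cell cycle genes were higher in 12 of 12 cases, summing to 416 to 674 CPM in the WT libraries, against 908 to 1575 CPM in Rank-knockout, and villus enterocyte markers were lower in 8 of 8, summing to 18340 to 22824 CPM and 7658 to 10425 CPM. Goblet markers summed to 12927 to 17220.1 CPM in the WT libraries, against 6987 to 9667 CPM in Rank-knockout, and Paneth markers to 1587 to 3095 and 2026 to 6113 CPM. Of 7 goblet markers 4 were lower and 1, Agr2, was higher (0.85, SE 0.14; adjusted p = 0.000615), and Zg16 made up most of the sum, with 10026 ± 1618 and 5348 ± 845 CPM (SD, n = 4). Of 6 Paneth markers 4 were higher and 1, Reg3a, was lower (-0.83, SE 0.22; adjusted p = 0.0122). Of other cells, 8 T cell markers summed to 242 to 353 and 169.5 to 261 CPM, and 7 plasma and B cell markers to 56.7 to 154 and 9.89 to 53.7 CPM, with Cd79a at 0 in all libraries. The part of any of these cell types in the synthetase and ATF4 values was not tested, and in bulk RNA a change in the number of cells of a type and a change in RNA per cell cannot be told apart.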

How the data were processed

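Intestinal epithelial cells of 4 WT and 4 Rank-knockout mice at lactation day 5 were profiled by 3′ mRNA-seq. As the study describes it, reads were trimmed (BBDuk), cleared of ribosomal, mitochondrial and phiX sequence (bowtie2), aligned to GRCm38 (mm10 in the submitters' processing notes) with STAR, and counted per gene on the sense strand (featureCounts). The authors deposited these read counts without normalization and used DESeq2 for their own test. As no molecular identifiers are described, PCR copies may be included, and errors from counts cover counting only.

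Here gene symbols and positions came from GENCODE M21, and promoter windows from RefSeq (GRCm38.p6). Genes passing edgeR's filterByExpr were tested for genotype with edgeR 4.0.16 (R 4.3.3; TMM scaling, robust quasi-likelihood test) and Benjamini-Hochberg adjustment over all genes tested at 0.05. SE was taken from the F statistic. The members and lists were chosen with earlier results of these data known. All 39 members are named, with library values for those past the threshold and for the largest changes of a role, and up to 4 genes of each other list and direction by smallest p. The ratios and antisense partners were added after the values were seen. Alternatives were RLE factors, limma-voom (limma 3.58.1), DESeq2 1.42.0, no low-count filter, a filter at a mean CPM of 5, library totals, totals minus the 50 most abundant genes, a replicate block, each library left out, and, added after seeing the data, thinning to the shallowest library. The test was tried on simulated counts.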

Additional observations from a re-analysis of the deposited data

Results flagged for a closer look

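In 6 of 72 sets of 4 libraries 1 value stood apart from the other 3 by Dixon's criterion, where chance gives about 1 in 20, or 3.6 sets. Total counts of WT replicate 2 were 4335653, against 1530781 to 1616024 in the other WT libraries. Rank-knockout replicate 4 was low for Dars (17.7 CPM, against 22.5 to 23.4 in the others of its group) and for Sars (87.0 CPM, against 119 to 124), and high for Sesn2 (13.7 CPM, against 7.88 to 8.54). Hars was at 16.6 CPM in WT replicate 4, against 29.5 to 31.4 CPM in the other WT libraries, and Psat1 at 20.8 CPM in Rank-knockout replicate 1, against 11.6 to 12.9 CPM. None of these 5 genes passed the threshold.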

How the results depend on the processing

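All 19 called genes kept their direction under all 17 alternatives, and 10 of them stayed past the threshold in each. With library totals, higher synthetase and scaffold genes numbered 20, higher ATF4 response genes 7, lower ones 1, higher mitochondrial synthetases 11 and lower further targets 1. Without the 50 most abundant genes the lower ATF4 response genes and the lower further targets numbered 1 each. DESeq2 called 2 higher ATF4 response genes. With each library left out, the counts ran from 8 to 14 for higher synthetase and scaffold genes, 2 to 6 and 1 to 2 for higher and lower ATF4 response genes, 2 to 8 for mitochondrial synthetases, and 4 to 6 and 1 to 3 for higher and lower further targets. The cause of these changes was not tested. The count of higher ATF4 response genes was 2 when WT replicate 1, 3 or 4 was missing or when Rank-knockout replicate 1 was. That of lower ones was 1 when WT replicate 2 was missing or Rank-knockout replicate 3 was, and that of lower further targets likewise, also on leaving out Rank-knockout replicate 1. The sign turned only for uncalled genes. Qars (-0.01) was at 0.19 with library totals, 0.12 without the 50 most abundant genes and 0.029 without the filter, and at -0.099 to 0.030 with a library left out. Sesn2 (-0.16) was at 0.044 with library totals and 0.13 after thinning, and at -0.40 to 0.052 with a library left out. Cebpb (0.19) was at -0.093 to 0.47 with a library left out.

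Same-numbered libraries of the 2 genotypes deviated together with correlations of 0.05, 0.15, -0.14 and 0.32, so the numbers were not taken to pair the mice. With the replicate number as a block, 15 synthetase and scaffold genes and 3 ATF4 response genes were higher. Of the regulators of eIF2 3 were higher and 2 lower. Of all genes in that fit 17.3% were higher and 16.3% lower. Depth limits the 4 ATF4 response genes that were not tested, with 6 to 73 counts in all.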
